A study of Mus musculus with 6 samples.

Results

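The 10 genes described here mark mature colonocytes, the differentiated absorptive cells at the surface of the colon, and were taken by name from the 54167 genes of the deposited table. They are *Car1*, *Car2*, *Car4*, *Slc26a3*, *Slc26a2*, *Aqp8*, *Krt20*, *Guca2a*, *Guca2b* and *Ceacam1*, and each of the 10 names matched a single gene. RNA was sequenced from 6 colorectal tumors of C57BL/6J mice, 3 of the genotype *Trp53fl/fl* and 3 of the genotype *Pvillin+Trp53fl/fl* (*VP*). Both genotypes carry *Trp53* alleles flanked by loxP sites, and only *VP* mice carry Cre, driven by the villin promoter, which is active in the intestinal epithelium, so that the stroma of a *VP* tumor keeps *Trp53*. The methods give male mice that were 8 weeks old when given the carcinogen azoxymethane (AOM, 10 mg/kg) by injection and that later received cycles of 2.5% dextran sulfate sodium (DSS, which injures the colonic lining) for 7 days each, with tumors collected on day 98. All 6 tumors shared this treatment, and no untreated colon was analysed here.

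Colonocytes are born from stem cells at the base of the crypt and switch on these genes as they move to the surface, where they take up salt and water. Carbonic anhydrases make bicarbonate and protons, SLC26 exchangers trade chloride or sulfate for other anions, aquaporins pass water, and the peptides guanylin and uroguanylin signal through a guanylate cyclase receptor that adjusts this transport. Loss of such transcripts is a well-known feature of poorly differentiated colorectal tumors, and their level in p53-intact and p53-deficient tumors is what the comparison addresses.

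Values are TPM, a relative transcript abundance that the authors computed with correction for transcript length, so that levels of different genes can be set side by side. Read numbers cannot be recovered from TPM, so the sequencing depth is unknown. Genotypes were compared with limma on log2(TPM + 1) over the 15117 genes that reached 1 TPM in 3 or more tumors, and p-values were adjusted over these genes (Benjamini-Hochberg). *Trp53* itself was at 125, 99.3 and 147 TPM in *Trp53fl/fl* tumors and at 38.5, 32.8 and 27.8 TPM in *VP* tumors, without overlap between the genotypes. The 12 epithelial markers examined were all detected in every tumor, with a sum of 10804 to 11336 TPM in *Trp53fl/fl* tumors and 12216 to 13422 TPM in *VP* tumors. In bulk tissue, fewer cells of a type and less RNA per cell cannot be told apart. *Trp53fl/fl* replicate 2 and *VP* replicate 3 had the lowest smooth muscle signal, and several of the 10 genes were lowest in the same pair.

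Promoter sequences are shown for *Car4*, *Slc26a3* and *Aqp8*, which had their lowest levels in the same pair of tumors. Each is RefSeq sequence of GRCm38.p6 on the plus strand, from 250 bases before to 30 bases after the gene's start, written 5′ to 3′. The windows are chr11:84957504-84957783 for *Car4*, chr12:31437969-31438248 for *Slc26a3* and chr7:123462044-123462323 for *Aqp8*. Capitals mark a match to a TATA box (TATAAA) or to the core bound by the intestinal CDX factors (TTTATNG), searched on both strands.
Car4 promoter: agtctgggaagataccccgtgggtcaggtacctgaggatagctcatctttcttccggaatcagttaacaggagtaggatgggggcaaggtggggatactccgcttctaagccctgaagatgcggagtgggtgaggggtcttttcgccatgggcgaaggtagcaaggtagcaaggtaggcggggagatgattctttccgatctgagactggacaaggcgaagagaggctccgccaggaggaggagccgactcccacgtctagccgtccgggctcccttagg
Slc26a3 promoter: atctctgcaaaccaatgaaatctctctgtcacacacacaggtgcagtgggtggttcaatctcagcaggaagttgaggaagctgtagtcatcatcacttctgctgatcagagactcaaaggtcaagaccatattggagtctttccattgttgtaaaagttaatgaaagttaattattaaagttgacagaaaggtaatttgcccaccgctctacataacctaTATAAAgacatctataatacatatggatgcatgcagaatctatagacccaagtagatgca
Aqp8 promoter: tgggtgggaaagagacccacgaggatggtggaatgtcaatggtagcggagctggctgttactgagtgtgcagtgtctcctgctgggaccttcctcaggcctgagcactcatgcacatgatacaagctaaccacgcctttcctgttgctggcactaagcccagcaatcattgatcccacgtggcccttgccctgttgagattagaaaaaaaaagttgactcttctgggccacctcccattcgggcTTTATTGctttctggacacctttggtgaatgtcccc

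In these windows *Slc26a3* holds TATAAA from position -30, counted from the gene's start, and *Aqp8* holds the CDX core from position -6, while *Car4* holds neither. Of the 32851 promoter windows of this length, 13.1% hold TATAAA and 10.5% hold TTTATNG, and none of the 7 windows matched to these genes holds the HNF4 motif CAAAGTCCA, which 0.457% of all windows hold. The letters TTTATNG overlap a TATA box where the base that follows fits, as in the *Krt20* promoter, whose CTATAAA counts for both. A match describes the sequence and does not show that a factor binds. *Car1*, *Car2* and *Slc26a2* had no window in this promoter set, and the windows of *Krt20*, *Ceacam1*, *Guca2a* and *Guca2b* are not printed.

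All 10 genes were expressed in every tumor and entered the test. None differed between the genotypes at a limma adjusted p-value under 0.05, against 0.165% of all genes tested (0.086% lower and 0.0794% higher in *VP* tumors), and the adjusted p-values ran from 0.317 to 0.989. At an unadjusted p-value under 0.05, 1 of the 10 (*Car1*) was lower in *VP* tumors, where 8.0% of all genes were, and none was higher, where 4.51% of all genes were. The log2 fold change, *VP* minus *Trp53fl/fl*, was above 0 for 7 genes and below 0 for 3, with a median of 0.05 beside -0.07 over all genes tested. This median ran from -0.071 without *VP* replicate 1 to 0.33 without *VP* replicate 3, it was -0.13 with epithelial centring, and its sign also turned without *VP* replicate 2 (-0.020) and without *Trp53fl/fl* replicate 3 (-0.0040). The summed level of the 10 genes was 1687, 2089 and 1586 TPM in *Trp53fl/fl* tumors and 1985, 2054 and 1490 TPM in *VP* tumors. The sums overlapped between the genotypes, with the lowest of the 6 in *VP* replicate 3 and the highest in *Trp53fl/fl* replicate 2.

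**Figure D1:**
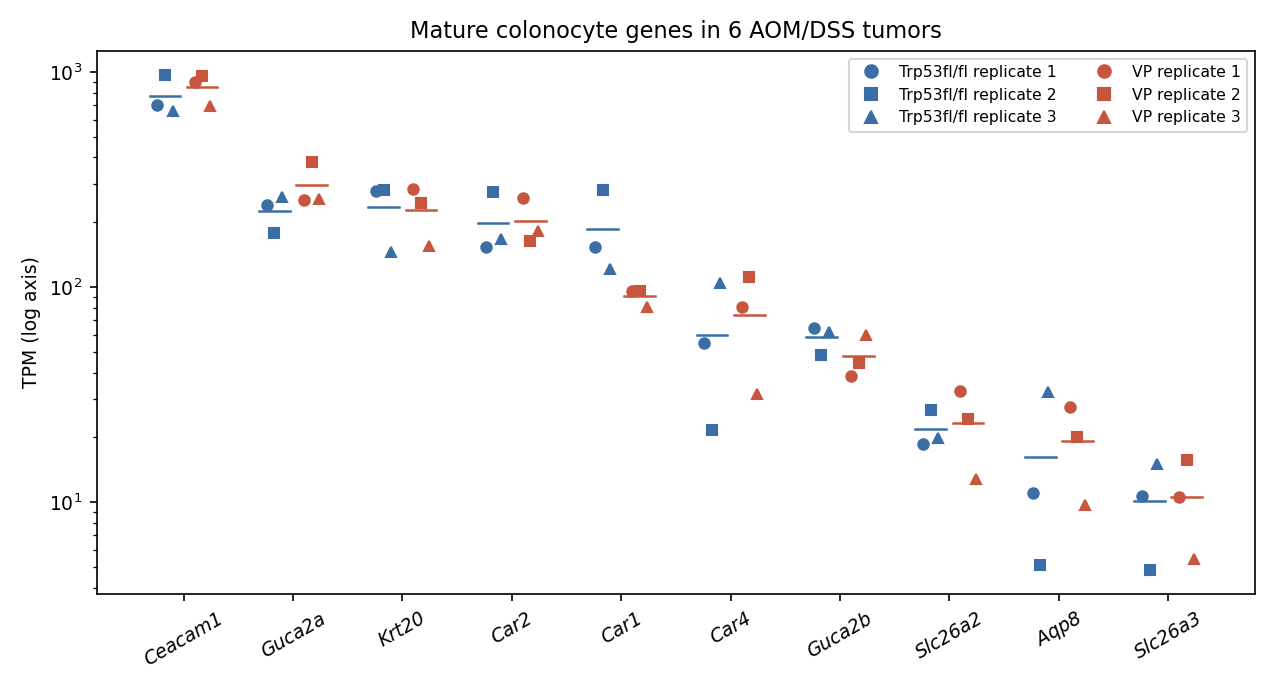
Level of each of the 10 genes in TPM (log axis) in every tumor, ordered by mean level, with *Trp53fl/fl* tumors in blue, *VP* tumors in red, symbols for the replicate and a bar at the mean of 3 tumors. Only for *Car1* do all *VP* tumors lie below all *Trp53fl/fl* tumors, and *Car4*, *Aqp8* and *Slc26a3* spread most within a genotype.

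*Ceacam1* was the most abundant of the 10, at a mean of 811 TPM over the 6 tumors, and exceeded *Guca2a* (262 TPM) in 6 of 6 tumors without overlap. *Guca2a*, *Krt20* (232 TPM), *Car2* (200.3 TPM) and *Car1* (139 TPM) followed, and each overlapped its neighbour in this order. *Guca2a* exceeded *Krt20* in 3 of 6 tumors, *Krt20* exceeded *Car2* in 4 and *Car2* exceeded *Car1* in 4. *Car4* (67.3 TPM) and *Guca2b* (52.9 TPM) also overlapped, each being the higher in 3 tumors. *Guca2b* lay above *Slc26a2* (22.5 TPM) in 6 of 6 tumors without overlap. *Slc26a2*, *Aqp8* (17.7 TPM) and *Slc26a3* (10.4 TPM) came last with overlapping ranges, although *Aqp8* exceeded *Slc26a3* in 6 of 6 tumors.

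The carbonic anhydrases took 3 different courses. *Car1* encodes a cytosolic enzyme that is abundant in colonic epithelium and in red blood cells. It was at 154, 284 and 122 TPM in *Trp53fl/fl* tumors and at 95.8, 95.9 and 80.7 TPM in *VP* tumors. All *VP* tumors lay below all *Trp53fl/fl* tumors, which holds for 13.3% of all genes tested, and the *VP* tumors lay close together while *Trp53fl/fl* replicate 2 stood well above the rest. The mean was 186 ± 85.7 TPM (SD, n = 3) against 90.8 ± 8.79 TPM (SD, n = 3). On the log2 scale the difference was -0.94 with a standard error of 0.29, at a limma p-value of 0.0141 that was 0.317 after adjustment. The 95% interval ran from -1.62 to -0.25 and is not adjusted for the number of genes. Without *Trp53fl/fl* replicate 2 the log2 fold change was -0.59, and across all alternative settings the adjusted p-value stayed between 0.0709 and 0.618.

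*Car2*, the high-activity cytosolic enzyme encoded in the same gene cluster as *Car1*, was at 153, 276 and 168 TPM in *Trp53fl/fl* tumors and at 259, 164 and 183 TPM in *VP* tumors. Its groups overlapped completely, with a log2 fold change of 0.04 and a 95% interval from -0.57 to 0.66, an interval that leaves room for a change of up to about 1.58-fold upward or a fold of 0.672 downward. The ratio of *Car1* to *Car2* within a tumor was 1.01, 1.03 and 0.726 in *Trp53fl/fl* tumors and 0.370, 0.586 and 0.442 in *VP* tumors. *Car1* was thus close to or below the level of *Car2* with intact *Trp53* and below it in every *VP* tumor. This ratio was chosen after the values were seen and was not tested.

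Both cytosolic enzymes also occur in red blood cells. The 7 erythroid markers summed to 168, 165 and 484 TPM in *Trp53fl/fl* tumors and to 712, 993 and 648 TPM in *VP* tumors, with *Hba-a2* listed at 0 and *Slc4a1* at most at 0.15 TPM in every tumor. All 4 tested erythroid markers had a log2 fold change above 0, with a median of 1.59, and none passed the limma adjustment (adjusted p-values of 0.246 to 0.334). The part of red blood cells in the *Car1* values was not tested.

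*Car4*, a carbonic anhydrase anchored to the outer face of the apical membrane, was at 54.7, 21.7 and 103.9 TPM in *Trp53fl/fl* tumors and at 80.3, 110.9 and 32.0 TPM in *VP* tumors. The highest tumor held 5.11 times the level of the lowest, and both genotypes contained a low and a high tumor. The log2 fold change was 0.39, with a wide 95% interval from -1.09 to 1.87 (limma adjusted p = 0.808).

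*Slc26a3*, the chloride-bicarbonate exchanger whose loss causes congenital chloride diarrhea, was at 10.6, 4.86 and 15.0 TPM in *Trp53fl/fl* tumors and at 10.6, 15.7 and 5.41 TPM in *VP* tumors. *Aqp8*, the water channel of surface colonocytes, was at 11.0, 5.08 and 32.5 TPM and at 27.8, 20.0 and 9.72 TPM. The lowest tumor was *Trp53fl/fl* replicate 2 and the next lowest *VP* replicate 3 for *Car4*, *Slc26a3* and *Aqp8* alike. Log2 fold changes were 0.06 for *Slc26a3* (95% interval -1.01 to 1.13) and 0.47 for *Aqp8* (95% interval -1.01 to 1.96), with limma adjusted p-values of 0.966 and 0.769. Without *Trp53fl/fl* replicate 2 the log2 fold changes of *Car4*, *Slc26a3* and *Aqp8* turned to -0.19, -0.35 and -0.10. Without *VP* replicate 3 they were 0.90, 0.43 and 0.87. Without both tumors, a setting chosen after seeing the data, they were 0.32, 0.027 and 0.30. The sign thus depended on which tumor was left out, so no direction can be given for these 3 genes.

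Smooth muscle transcripts, which do not belong to colonocytes, had their lowest levels in the same pair of tumors as these 3 genes. The 8 smooth muscle markers, among them *Acta2*, *Tagln* and *Actg2*, summed to 697, 496 and 822 TPM in *Trp53fl/fl* tumors and to 887, 1363 and 421 TPM in *VP* tumors. All 8 were lowest in *Trp53fl/fl* replicate 2 and *VP* replicate 3, as were 3 of the 10 mature colonocyte genes and 6.79% of all genes tested. So were 5 of 27 tested genes (18.5%) of a list of other absorptive colonocyte genes described below. The same held for 3 of 5 tested aquaporins, *Aqp8* among them. None of the 12 epithelial markers had its lowest values in that pair of tumors. *Trp53fl/fl* replicate 2, the lowest tumor for *Car4*, *Slc26a3* and *Aqp8*, was at the same time the highest for *Car1*, *Car2* and *Ceacam1*. The ratio of *Car1* to *Car4* consequently reached 13.1 in that tumor and lay between 0.865 and 2.81 in the others. The smooth muscle sum was lowest in *VP* replicate 3 and highest in *VP* replicate 2. *Car4* and *Slc26a3* were also highest in *VP* replicate 2, while *Aqp8* was highest in *Trp53fl/fl* replicate 3. All 3 genes were lowest in *Trp53fl/fl* replicate 2. The part of muscle or of other tissue in the dissected pieces was not tested.

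**Figure D2:**
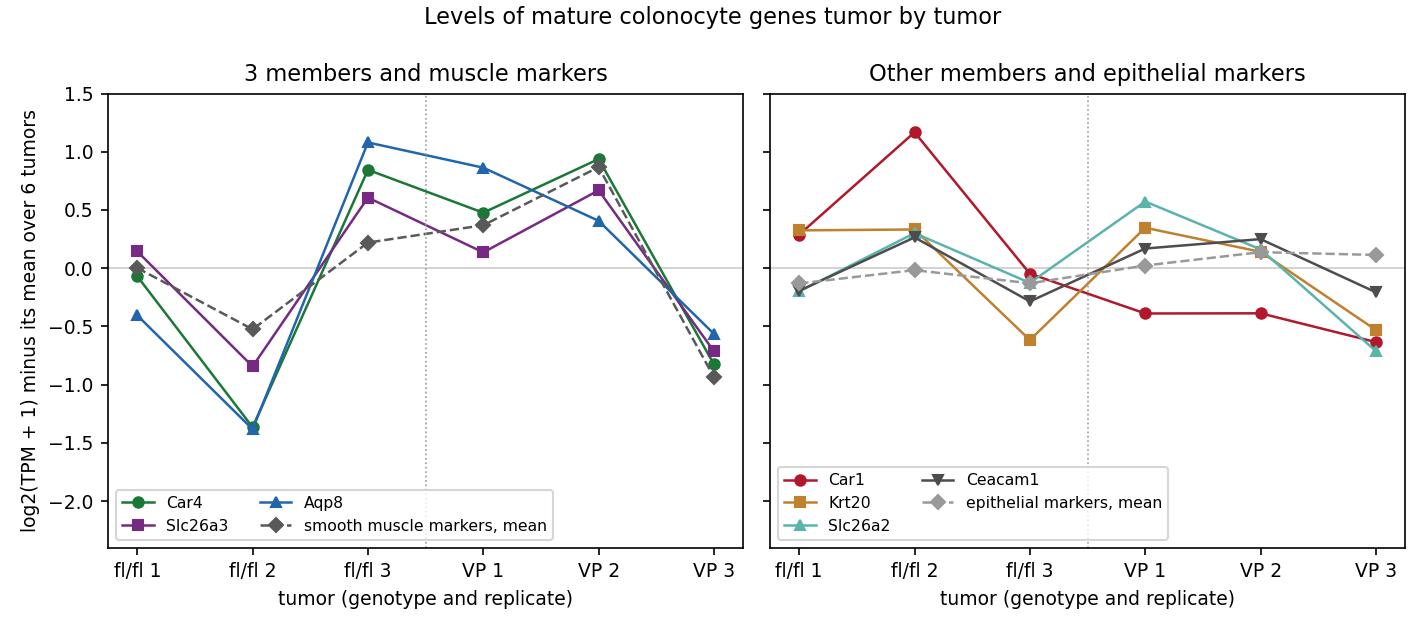
Log2(TPM + 1) minus the gene's mean over the 6 tumors, tumor by tumor (fl/fl, *Trp53fl/fl*), with lines joining the values of the same gene, for *Car4*, *Slc26a3*, *Aqp8* and the mean of 8 smooth muscle markers on the left and for *Car1*, *Krt20*, *Slc26a2*, *Ceacam1* and the mean of 12 epithelial markers on the right. The left-hand genes are lowest in *Trp53fl/fl* replicate 2 and *VP* replicate 3. The plotted mean of the 12 epithelial markers stays within 0.14 of its level over the 6 tumors, while single markers vary more.

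*Slc26a2*, a sulfate transporter that supplies sulfate for mucins and proteoglycans, did not share this course. It was at 18.7, 26.9 and 19.8 TPM in *Trp53fl/fl* tumors and at 32.7, 24.3 and 12.8 TPM in *VP* tumors, so that *VP* tumors held both its highest and its lowest value. The log2 fold change was 0.02 with a 95% interval from -0.74 to 0.78 (limma adjusted p = 0.989).

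The guanylin peptides went in opposite directions without passing the test. *Guca2a* encodes guanylin, the main colonic ligand of the receptor, and was at 239.8, 178 and 261 TPM in *Trp53fl/fl* tumors and at 255, 379.9 and 258 TPM in *VP* tumors. *Guca2b* encodes uroguanylin and was at 64.8, 48.4 and 61.8 TPM against 38.4, 44.2 and 60.0 TPM. The values of each gene overlapped between the genotypes, *Guca2a* with its highest tumor and *Guca2b* with its 2 lowest tumors among the *VP* tumors. Log2 fold changes were 0.39 for *Guca2a* (95% interval -0.10 to 0.87, limma adjusted p = 0.474) and -0.30 for *Guca2b* (95% interval -0.75 to 0.15, limma adjusted p = 0.528). Within a tumor the ratio of *Guca2a* to *Guca2b* was 3.70, 3.68 and 4.22 in *Trp53fl/fl* tumors and 6.63, 8.59 and 4.30 in *VP* tumors. This ratio did not overlap between the genotypes, although *VP* replicate 3 lay just above *Trp53fl/fl* replicate 3, and it was chosen after the values were seen and not tested.

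The other genes of the guanylin pathway gave no call either. *Gucy2c*, the receptor of both peptides, was at 48.7, 43.3 and 46.9 TPM in *Trp53fl/fl* tumors and at 70.5, 64.4 and 42.2 TPM in *VP* tumors (log2 fold change 0.31, limma adjusted p = 0.521). Of the 7 pathway genes besides the ligands, 3 had a log2 fold change above 0 and 4 below, and none passed an adjusted p-value of 0.05. The lowest unadjusted p-value was that of *Pde5a*, a phosphodiesterase that breaks down cGMP, at 0.0483 (log2 fold change -0.39). *Slc9a3*, the sodium-proton exchanger that cGMP restrains, was at 64.0, 81.2 and 45.0 TPM and at 71.5, 23.97 and 54.5 TPM, with *VP* replicate 2 as the lowest tumor. Among the abundant pathway genes, *Slc9a3r1*, a scaffold of *Slc9a3*, had a log2 fold change of 0.05 and *Abcc4*, an exporter of cyclic nucleotides, one of -0.46.

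*Krt20*, a keratin of differentiated gut epithelium, was at 280.2, 282 and 145 TPM in *Trp53fl/fl* tumors and at 285, 246 and 154 TPM in *VP* tumors. In each genotype replicate 3 was the lowest tumor, well below the other two, and the log2 fold change was -0.03 with a 95% interval from -0.78 to 0.73 (limma adjusted p = 0.978). *Krt8* and *Krt18*, which are made throughout the gut epithelium, differed by 0.10 and 0.0036 on the log2 scale (limma adjusted p = 0.751 and 0.994), and *Krt19* by 0.39 (limma adjusted p = 0.346).

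*Ceacam1*, a cell adhesion molecule of the apical surface, was at 700.6, 963 and 657 TPM in *Trp53fl/fl* tumors and at 900.8, 953 and 694 TPM in *VP* tumors. It varied least among the 10 genes, with 1.46 times the lowest level in the highest tumor, and its log2 fold change was 0.14 (95% interval -0.31 to 0.59, limma adjusted p = 0.769). Its paralog *Ceacam2*, with which reads may be shared, stayed between 1.44 and 6.11 TPM. Neutrophils also carry CEACAM1, and the 10 neutrophil markers summed to 639, 301 and 502 TPM in *Trp53fl/fl* tumors and to 1876, 1959 and 1160.0 TPM in *VP* tumors. Of these markers *Ngp*, a neutrophil granule protein gene, passed the limma adjustment (log2 fold change 4.37, adjusted p = 0.00804). The part of neutrophils in the *Ceacam1* values was not tested.

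**Figure D3:**
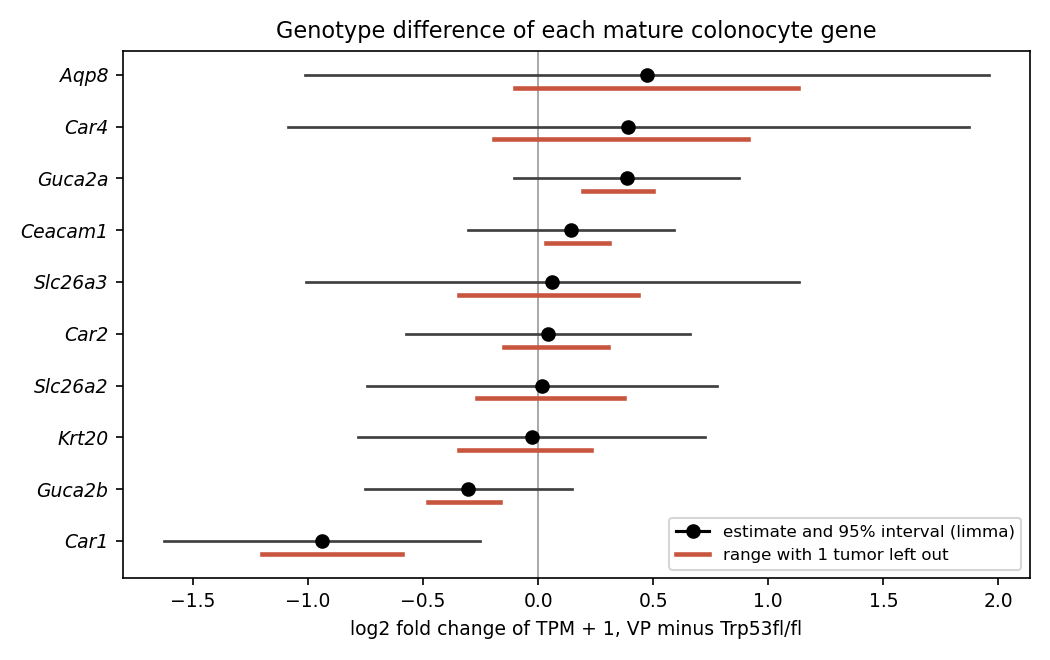
Log2 fold change of TPM + 1, *VP* minus *Trp53fl/fl*, for each of the 10 genes (points) with the 95% interval from limma, not adjusted for the number of genes (black), and the range of estimates with each tumor left out in turn (red). The interval of *Car1* lies below 0, from -1.62 to -0.25, and those of the other 9 genes include 0.

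The families to which these genes belong were examined without the members themselves. Of the 13 other carbonic anhydrases, 7 passed the expression filter and none passed the adjustment. *Car9*, a membrane enzyme induced by hypoxia, was at 30.8, 39.9 and 23.8 TPM in *Trp53fl/fl* tumors and at 52.3, 45.1 and 43.9 TPM in *VP* tumors, without overlap (log2 fold change 0.59, limma adjusted p = 0.325). *Car13* and *Car12* came next in level, with log2 fold changes of 0.23 and 0.49. Of the 9 other SLC26 genes 3 were tested, and *Slc26a11* (log2 fold change -0.50, limma adjusted p = 0.366) and *Slc26a9* (-0.41, limma adjusted p = 0.409) were lower in every *VP* tumor than in every *Trp53fl/fl* tumor, at means of at most 4.61 TPM. Over all genes tested, 13.3% were lower in every *VP* tumor and 6.03%, as *Car9*, higher in every *VP* tumor.

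Of the 10 other aquaporins 4 were tested, and all 4 had a log2 fold change above 0, as did 39.2% of all genes. *Aqp1*, the water channel of blood vessels, was at 35.2, 36.3 and 35.5 TPM in *Trp53fl/fl* tumors and at 58.4, 50.2 and 44.3 TPM in *VP* tumors without overlap (log2 fold change 0.49, limma adjusted p = 0.278). *Aqp4*, which is basolateral in the gut, was at 28.5, 21.1 and 37.0 TPM and at 29.6, 60.1 and 21.4 TPM. Its lowest values were those of *Trp53fl/fl* replicate 2 and *VP* replicate 3, as for *Aqp8*. Among the other CEACAM genes, *Ceacam10* was at 164, 129 and 180.3 TPM and at 314.5, 197 and 279 TPM (log2 fold change 0.72, limma adjusted p = 0.301), and for *Ceacam18* it was 0.78 (limma adjusted p = 0.278). Every *VP* tumor was above every *Trp53fl/fl* tumor for both, which holds for 6.03% of all genes tested. *Ceacam20*, at a mean of 29.6 TPM, overlapped between the genotypes (log2 fold change 0.44, limma adjusted p = 0.418).

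A list of 28 other absorptive colonocyte genes was set beside the 10. Like all lists here, it was chosen with earlier results of these data known, so its counts only describe these tumors. Of its 27 tested genes, 21 had a log2 fold change above 0 and 6 below, with a median of 0.33 beside -0.07 for all genes. None passed the limma adjustment, and the lowest adjusted p-value was 0.234. At an unadjusted p-value under 0.05, 7 were higher and none was lower in *VP* tumors, beside 4.51% and 8.0% of all genes tested. The same 7 were above every *Trp53fl/fl* tumor in every *VP* tumor, which holds for 6.03% of all genes tested. *Lypd8*, a secreted colonic protein that keeps flagellated bacteria from the surface, was the most abundant, at 5248, 7606 and 4738 TPM in *Trp53fl/fl* tumors and at 8680, 9454 and 8342 TPM in *VP* tumors (log2 fold change 0.62, limma adjusted p = 0.334). *Cdhr5*, a protocadherin of the brush border, was at 147, 195 and 138 TPM against 230.1, 219.9 and 208 TPM (log2 fold change 0.47, limma adjusted p = 0.317).

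The abundant genes *Plac8* and *Muc3*, a membrane mucin, and *Emp1* overlapped between the genotypes, with log2 fold changes of 0.33, 1.00 and -0.09. The other 5 of the 7 genes are named after their values were seen. *Fxyd4*, a regulator of the sodium pump, was at 36.2, 25.2 and 41.5 TPM in *Trp53fl/fl* tumors and at 108, 72.0 and 60.0 TPM in *VP* tumors (log2 fold change 1.18, limma adjusted p = 0.234). *Slc5a8* and *Slc16a1*, both carriers of short-chain fatty acids, differed by 0.85 and 0.40 on the log2 scale (limma adjusted p = 0.299 and 0.317), and the enzyme genes *Cyp2c55* and *Sult1a1* by 1.28 and 1.15. The 10 mature colonocyte genes and this longer list were not tested against each other.

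**Figure D4:**
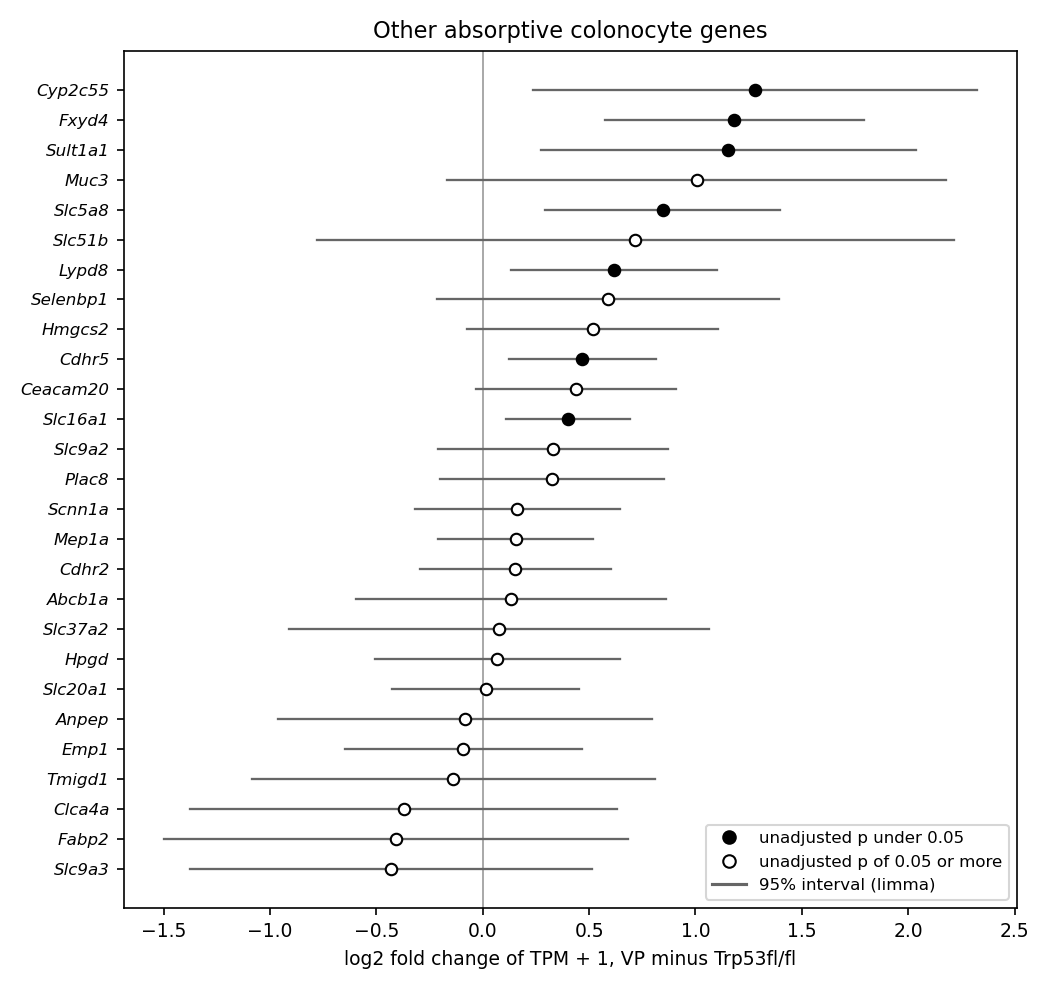
Log2 fold change of TPM + 1, *VP* minus *Trp53fl/fl*, with the 95% interval from limma for the 27 tested genes of the list of other absorptive colonocyte genes; filled points have an unadjusted p-value under 0.05. All 7 filled points lie above 0, and 21 of the 27 estimates do.

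All 12 epithelial markers had a log2 fold change above 0, beside 39.2% of all genes tested, with a median of 0.16. Every *VP* sum was above every *Trp53fl/fl* sum. Of the single markers, 3 of the 12 were above every *Trp53fl/fl* tumor in every *VP* tumor, which holds for 6.03% of all genes tested. The other markers overlapped between the genotypes. None of the 12 markers passed the limma adjustment (lowest adjusted p = 0.292). At an unadjusted p-value under 0.05, 3 of the 12 were higher in *VP* tumors, where 4.51% of all genes tested were. When each tumor was centred on these markers, the median over all genes went from -0.07 to -0.25. On that scale *Car1* was at -1.12 and *Guca2b* at -0.49, and *Guca2a*, *Aqp8* and *Car4* were at 0.20, 0.29 and 0.21. The signs of *Car2*, *Slc26a3*, *Slc26a2* and *Ceacam1* turned negative there, with values of -0.14, -0.12, -0.17 and -0.042.

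Regulators of colonocyte differentiation were expressed in all tumors. Of the 14 listed, 13 had a log2 fold change above 0 with a median of 0.14, and none passed the adjustment. Over all genes tested, 39.2% were above 0 and the median was -0.07. *Elf3* and *Hnf4a*, the most abundant, had log2 fold changes of 0.20 and 0.03, and *Klf5*, *Cdx1* and *Klf4* of 0.02, 0.37 and 0.39 (limma adjusted p-values of 0.423 to 0.949). Of 7 tested stem cell markers of the crypt base, 6 were below 0 (median log2 fold change -0.29), as most genes tested were, and *Smoc2* alone was above 0. The most abundant, *Smoc2* and *Axin2*, were at 0.23 and -0.36, and 7 of 8 proliferation markers were below 0 (median -0.14). Goblet cell markers were mixed, with 3 above and 5 below 0 (median -0.093). None of these stem cell, proliferation or goblet markers passed the limma adjustment.

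By the root mean square difference of centred log2(TPM + 1) over the 6 tumors, the genes of at least 5 TPM most like the mean of the 10 were *Marveld1* (0.034), *Lrrc8e* (0.055), *Kdr* (0.065), *Fzd7* (0.071) and *Slc20a1* (0.076). The mean itself spanned -0.41 in *VP* replicate 3 to 0.23 in *VP* replicate 2. It is not a course that the 10 genes shared. In *Trp53fl/fl* replicate 2 the centred values of *Car4*, *Slc26a3* and *Aqp8* were -1.36, -0.84 and -1.38. Those of *Car1*, *Car2* and *Ceacam1* were 1.17, 0.50 and 0.26 in the same tumor. The likeness is a description over 6 tumors and was searched among 11327 genes.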

How the data were processed

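Poly(A) RNA of 6 tumors was sequenced from both ends. The authors deposited TPM per gene, scaled for transcript length and to the same total in each tumor (column sums 999964 to 1000067) and rounded to 2 decimals, without pooling. The submitters' processing notes name HISAT2, StringTie and mm9; the annotation is not given in the sources used here. The reference at hand is GRCm38, so no gene coordinates are printed, and promoters carry the build of their RefSeq table. Each TPM depends on all other genes of its tumor, and the depth is unknown.

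From the deposited TPM, log2(TPM + 1) was tested with limma 3.58.1 in R 4.3.3 (empirical Bayes with trend, Benjamini-Hochberg adjustment) for the 15117 genes that reached 1 TPM in 3 or more tumors, VP against Trp53fl/fl, and the procedure was tested on simulated data. The labels do not say whether the tumors of a genotype came from separate mice, so p-values measure the spread between these samples. An exact permutation test of 3 against 3 cannot go below p = 0.1 and was not used. The 10 genes and all lists were chosen with earlier results of these data known. Named are all 10 genes, Trp53, any list gene with an adjusted p-value under 0.05, up to 5 of the most abundant genes of a list, and the 5 genes most like the mean of the 10; others are said to be named after their values were seen, and marker lists are given by sums and counts. Alternatives were other filters, a pseudocount of 0.1, median-of-ratios, quantile and epithelial scaling, a replicate block, other variance models, each tumor left out, and, chosen after seeing the data, leaving out both tumors with the lowest smooth muscle markers.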

Additional observations from a re-analysis of the deposited data

How the results depend on the processing

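None of the 10 mature colonocyte genes passed an adjusted p-value of 0.05 in limma under any of the 16 alternatives (lowest 0.0709, *Car1* with array quality weights; 1 gene at an unadjusted p-value under 0.05 in the main setting). *Car1* and *Guca2b* stayed below 0 and *Guca2a* above 0 under all 16. Of 160 values, 21 changed sign, and the cause was not tested. With epithelial centring, log2 fold changes were -0.14 for *Car2*, -0.12 for *Slc26a3*, -0.17 for *Slc26a2* and -0.042 for *Ceacam1*; *Slc26a3* was at -0.024 with array quality weights, and *Krt20* at 0.050 with median-of-ratios rescaling and 0.39 without both tumors low in smooth muscle. With 1 tumor left out, they ran from -0.15 to 0.30 for *Car2*, -0.19 to 0.91 for *Car4*, -0.35 to 0.43 for *Slc26a3*, -0.27 to 0.38 for *Slc26a2*, -0.10 to 1.13 for *Aqp8*, -0.34 to 0.23 for *Krt20*, 0.20 (without *VP* replicate 2) to 0.50 for *Guca2a*, -0.48 (without *VP* replicate 3) to -0.17 (without *VP* replicate 1) for *Guca2b* and 0.035 to 0.31 for *Ceacam1*; *Guca2b* was at -0.61 without both tumors low in smooth muscle.

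Over all genes, 25 passed the adjustment, 7 without the filter, 323 with array quality weights, 3 to 23 with a tumor left out (3 without *Trp53fl/fl* replicate 1, and 5, 7, 9 and 14 without *VP* replicates 2 and 1 and *Trp53fl/fl* replicates 3 and 2) and 0 without both tumors low in smooth muscle (1745 genes at an unadjusted p-value under 0.05). Of the 25, 12 were higher and 13 lower in *VP* tumors, against 12 and 8 with median-of-ratios rescaling and 9 and 22 with epithelial centring. Of the other absorptive colonocyte genes, 3 (*Fxyd4*, *Slc5a8* and *Cdhr5*) passed with array quality weights. That setting weighted *Trp53fl/fl* replicate 1 at 7.29 and the other tumors at 0.444 to 1.04, so its calls rest largely on 1 control tumor. The labels do not say whether equal replicate numbers pair tumors. Deviations from the group means correlated at 0.0185, -0.052 and 0.0175 for equal numbers and at -0.108 to 0.0952 for unequal numbers. Such correlations over all genes cannot decide whether the tumors were paired. The replicate block gave 10 calls and changed no call of the 10 genes. With 3 tumors a genotype, the intervals of *Car4* and *Aqp8* span folds of 0.471 to 3.66 and 0.495 to 3.88.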

Other observations

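The 2 tumors with the lowest *Krt20* level, *Trp53fl/fl* replicate 3 (145 TPM) and *VP* replicate 3 (154 TPM), were the 2 with the highest *Hoxd13* level, at 60.9 and 53.5 TPM, where the other 4 tumors were at 9.06, 0.75, 1.46 and 7.06 TPM. *Hoxd13* belongs to the genes that mark the hindmost part of the gut. The same pair held the 2 lowest levels of *Ceacam1* (657 and 694 TPM), of *Emp1* (58.0 and 62.4 TPM) and of *Clca4a* (32.2 and 24.4 TPM). *Emp1* and *Clca4a* were picked from the 27 tested other absorptive colonocyte genes. Of that list *Slc9a2* and *Abcb1a* were also lowest in this pair, while most of its genes were not. Of the 10 mature colonocyte genes, only *Krt20* and *Ceacam1* were lowest in this pair. *Aqp8* was highest in *Trp53fl/fl* replicate 3 (32.5 TPM), where *Car4* was also high (103.9 TPM). The share of all genes tested that are lowest in this pair was not counted. *Hoxb13*, another posterior gene, differed far less, between 148 and 193 TPM. *Hoxa13*, also posterior, went another way and was lowest in *VP* replicate 3. It was at 24.51, 24.05 and 24.31 TPM in *Trp53fl/fl* tumors and at 24.73, 20.16 and 13.41 TPM in *VP* tumors. *Hoxd12* was at 10.23 TPM in *VP* replicate 3 but at 0.16 TPM in *Trp53fl/fl* replicate 3. *Hoxb6* was at 0.36, 0.83 and 0.56 TPM in *Trp53fl/fl* tumors and at 4.34, 3.11 and 1.90 TPM in *VP* tumors (log2 fold change 1.35, limma adjusted p = 0.192). These genes were picked after their values were seen, and the site of each tumor along the colon is not in the labels.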
